A study of Homo sapiens with 20 samples.

Results

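Human lung cancer cell lines were compared according to whether interferon-stimulated genes rose after decitabine (DAC), an inhibitor of DNA methyltransferases. The responding lines were A549, CL1-5 and H1299 and the non-responding lines were CL1-0, PC9 and H1792, so that 6 samples of the responding lines were set against 6 of the others among the 12 mRNA-seq samples, in a series of 20 samples. The lines were grouped by the rise of interferon-stimulated genes in these same libraries. For each line the change was log2((DAC + 0.1)/(Mock + 0.1)), in FPKM (fragments scaled to the length of the transcript and the depth of the library), and for the 51 genes of the interferon-stimulated list the median change was 2.04 in A549, 2.70 in CL1-5 and 0.45 in H1299, against 0.11 in CL1-0, 0.20 in PC9 and 0.19 in H1792. H1299 was the line just inside the division and PC9 the line just outside it. Because changes after DAC chose the groups, every change below is a description without a test, and only Mock levels were tested.

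Each line was either Mock-treated with PBS or given 100 nM DAC for 72 h, after which it was kept for 3 days without drug. There was 1 library per line and treatment, so the cell lines are the only replicates, with 3 in each group. Separate cultures of a line were not available to measure the spread within it. CL1-5 is a more invasive subline selected from CL1-0, and these sister lines were in opposite groups. Across genes their Mock profiles had a Pearson correlation of 0.87, the highest of the 15 pairs of lines, the other 14 lying between 0.702 and 0.828. The labels name no engineered allele and no other agent for any line.

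Type I and type III interferons are secreted proteins that a cell releases when it senses foreign or misplaced nucleic acid. The RNA sensors RIG-I (DDX58) and MDA5 (IFIH1) and the DNA sensor cGAS start the signal, the interferon receptors pass it to a transcription factor complex that contains IRF9, and this complex binds a short element in the promoters of interferon-stimulated genes, many of which act against viruses. DNA methyltransferase inhibitors are known to induce these genes in some cancer cells, in part through double-stranded RNA from endogenous retroviruses whose silencing by DNA methylation is lost.

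The H1299 libraries stood apart from the others before any comparison between the groups. Their 59.7 M (Mock) and 52.6 M (DAC) reads compared with 22.2 M to 25.3 M in the other 10 libraries, and 78% and 76.1% of their non-zero gene counts were even numbers, against 45.3% to 46.4% elsewhere. There were 567 genes at 0 reads in both H1299 libraries with at least 10 reads in every other library, and between 1 and 38 such genes for each of the other 5 lines. These 567 genes include IRF9 and the translation factor EIF4A1, which proliferating cells use, so a gene listed at 0 in H1299 cannot be taken as silent there. Counts that leaving out H1299 moved by more than 1.5 times are therefore given with and without it. Leukocyte markers were near 0 in all 6 lines, with CD3D, CD3E and CD2 at most at 0.044 FPKM in Mock cells and LYZ, the highest shared one, between 0.518 and 0.912 FPKM. Summed over the 16 leukocyte markers, of which 7 passed the filter, the Mock level was 1.02 to 5.86 FPKM in the responding lines and 1.09 to 1.88 in the others. The lung lineage regulator NKX2-1 and the surfactant gene SFTPB were at most at 0.335 FPKM, so these defining lung markers were close to absent from every line in both groups. Other lung lineage genes were present, as 9 of the 17 on that list passed the filter. Summed over that list, the Mock level was 23.3 to 48.2 FPKM in the responding lines and 25 to 56.5 in the others. The epithelial keratin KRT8 was at 37.8 to 1578 FPKM in the responding lines and at 801 and 50.1 in PC9 and H1792, but at 0.154 in CL1-0, and EPCAM was under 0.2 FPKM in CL1-5, H1299 and CL1-0.

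The promoters below are shown because the element bound by the complex that contains IRF9 can be read in them, and because they come from genes that moved in all 3 responding lines (IFIT1, IFIT3, ISG15) or in A549 and CL1-5 but not H1299 (PARP14). Each covers 250 bases before and 50 bases after the transcription start in RefSeq (GRCh38.p14), written 5′ to 3′ on the gene's strand, with matches to GAAANNGAAA on either strand in capitals. The positions are chr10:89392373-89392672 (+) for IFIT1, chr10:89327747-89328046 (+) for IFIT3, chr1:1013247-1013546 (+) for ISG15 and chr3:122680589-122680888 (+) for PARP14.
IFIT1: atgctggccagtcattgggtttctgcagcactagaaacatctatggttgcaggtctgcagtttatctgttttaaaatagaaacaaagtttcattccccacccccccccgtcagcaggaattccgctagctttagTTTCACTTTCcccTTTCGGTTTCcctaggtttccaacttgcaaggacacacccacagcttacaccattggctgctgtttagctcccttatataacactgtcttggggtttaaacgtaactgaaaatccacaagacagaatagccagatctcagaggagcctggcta
IFIT3: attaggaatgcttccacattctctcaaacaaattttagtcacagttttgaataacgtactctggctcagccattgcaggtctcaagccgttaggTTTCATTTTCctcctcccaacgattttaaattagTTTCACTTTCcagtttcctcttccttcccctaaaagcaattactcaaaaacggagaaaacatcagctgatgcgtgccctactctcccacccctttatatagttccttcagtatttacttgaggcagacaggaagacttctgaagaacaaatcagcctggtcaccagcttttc
ISG15: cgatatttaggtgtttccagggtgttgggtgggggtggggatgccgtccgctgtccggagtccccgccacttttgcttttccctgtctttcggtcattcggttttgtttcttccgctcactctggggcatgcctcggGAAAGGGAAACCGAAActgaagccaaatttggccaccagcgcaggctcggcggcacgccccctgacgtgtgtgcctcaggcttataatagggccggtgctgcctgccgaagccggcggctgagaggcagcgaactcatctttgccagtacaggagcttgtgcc
PARP14: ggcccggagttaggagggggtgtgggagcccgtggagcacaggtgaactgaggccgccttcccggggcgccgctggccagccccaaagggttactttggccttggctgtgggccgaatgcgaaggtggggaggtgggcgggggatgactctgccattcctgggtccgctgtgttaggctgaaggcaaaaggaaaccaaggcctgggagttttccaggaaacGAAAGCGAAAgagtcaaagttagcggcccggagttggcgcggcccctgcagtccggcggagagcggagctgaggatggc

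The IFIT1 and IFIT3 promoters each held 2 matches, all on the opposite strand, the ISG15 promoter held 2 that overlap, and the PARP14 promoter held 1, starting 29 bases before the transcription start. Of the 51 interferon-stimulated genes, 41 had a promoter in the RefSeq table, and 28 of these (68.3%) held the element, compared with 1195 of all 27305 genes in that table (4.38%) and 1255 of its 35116 promoters (3.57%). Among the 18 list genes whose level at least doubled in all 3 responding lines, 12 of the 14 with a promoter held it (85.7%). Among the 19 that at least doubled in A549 and CL1-5 but not in H1299, 10 of 16 held it (62.5%). A match of these letters is a description of the window and does not show binding.

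**Figure D1:**
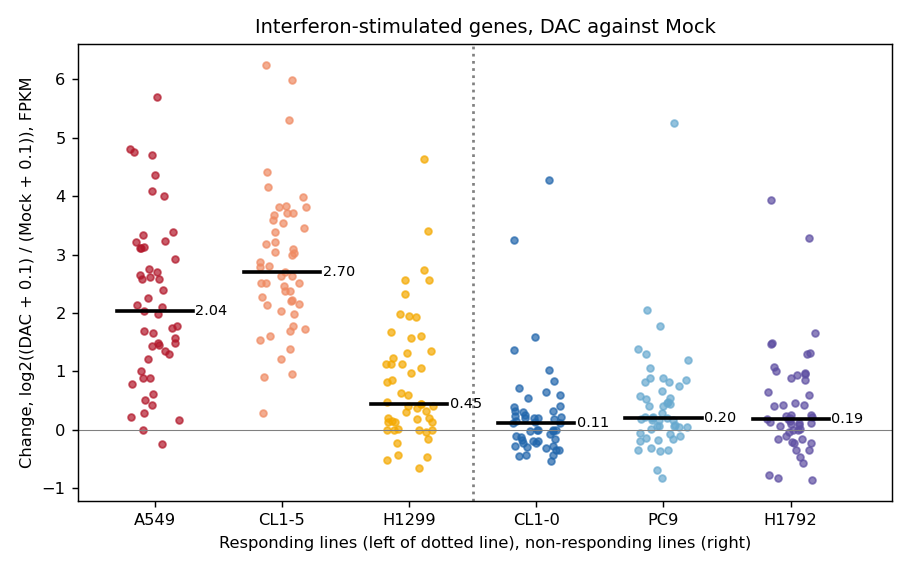
Change after DAC (log2, DAC over Mock) of the 51 interferon-stimulated genes in each line, 1 point per gene, with the median of the line as a bar. The medians are 2.04 and 2.70 in A549 and CL1-5, 0.45 in H1299, and between 0.11 and 0.20 in CL1-0, PC9 and H1792.

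Interferon-stimulated genes were higher after DAC in most of the list in A549 and CL1-5, and in a smaller part of it in H1299. LY6E was an exception in A549, with a change of -0.24. The number of list members whose FPKM at least doubled (change of 1 or more) was 40 of 51 in A549, 48 in CL1-5 and 19 in H1299, against 5 in CL1-0, 7 in PC9 and 9 in H1792, and none was halved in any line. For 27 of the 51 genes the change in every responding line was larger than in every non-responding line, and for none was it smaller. Over all 22814 genes with a mean of at least 0.1 FPKM, 899 (3.94%) had a larger change and 1045 (4.58%) a smaller change in every responding line. Without H1299 the number of list members with a larger change was 43, beside 1725 of 22983 genes (7.51%) with a larger and 1922 (8.36%) with a smaller change. The list chose the groups, so nothing is read from its counts. In these bulk samples a level averages over the culture, and fewer responding cells cannot be told apart from less RNA per cell.

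IFIT3, which binds IFIT1 and strengthens its hold on viral RNA, had a similar change in the 3 responding lines. Its level went from 1.54 to 10.2 FPKM in A549, from 24.3 to 152 in CL1-5 and from 9.23 to 61.8 in H1299, while it was 0.193 and 0.115 in CL1-0, 1.29 and 1.90 in PC9 and 3.60 and 3.91 in H1792. The changes of 2.65, 2.64 and 2.73 did not overlap those of -0.44, 0.52 and 0.12. IFIT1, which binds viral RNA ends, changed by 2.92, 2.99 and 1.94 in A549, CL1-5 and H1299 and by -0.13, -0.69 and 0.02 in CL1-0, PC9 and H1792. OASL, an antiviral relative of the oligoadenylate synthetases, changed by 4.80, 2.80 and 2.56 in the responding lines and by at most 0.67 in the others. The chemokine CXCL11 had 0 reads in all 6 Mock libraries and 37, 35 and 96 reads after DAC in A549, CL1-5 and H1299, with at most 1 read in any non-responding line. CXCL10, its close relative, had 215 reads after DAC in CL1-5 and 25 in H1299 but only 1 in A549, so the pair separated within the responding group.

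ISG15, a ubiquitin-like modifier, showed that Mock levels did not follow the grouping. It went from 2.48 to 67.5 FPKM in A549, from 114 to 1062 in CL1-5 and from 24.5 to 60.9 in H1299, and was 75.2 and 60.7 in CL1-0, 6.33 and 10.7 in PC9 and 20.8 and 40.9 in H1792. The DAC level in CL1-0, a non-responding line, was thus close to that in H1299. Over the whole list the median Mock level, as log2(FPKM + 0.1), was 0.25 in A549, 1.92 in CL1-5 and 0.62 in H1299, and -1.36 in CL1-0, 0.48 in PC9 and 1.67 in H1792, so the groups overlapped before treatment. The sister lines stood at the ends of this range.

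Within the list, H1299 parted from A549 and CL1-5 on a definite set of genes. The 18 genes doubled in all 3 responding lines include IFI44, IFIT1, IFIT2, IFIT3, ISG15, MX1, OAS2, OAS3, OASL, RSAD2 and the RNA sensors DDX58, IFIH1 and DHX58. The 19 doubled in A549 and CL1-5 but not in H1299 include PARP9, PARP12, PARP14, DTX3L, IRF7, SAMD9, SAMD9L, HERC5, HERC6, XAF1 and TRIM22, of which DTX3L and IRF7 also passed that fold in CL1-0 and TRIM22 in H1792. PARP12 and HERC5 were only short of the cut in H1299, with changes of 0.86 and 0.60. XAF1 and TRIM22 had at most 5 reads in either H1299 library, near the floor. PARP14, an ADP-ribosyltransferase, went from 2.81 to 9.61 FPKM in A549 and from 3.68 to 17.3 in CL1-5, whereas in H1299 it was 3.23 in Mock and 2.73 after DAC. IRF7, the factor that amplifies interferon transcription, changed by 2.76 and 2.27 in A549 and CL1-5 and by 0.14 in H1299, where its Mock level of 4.74 FPKM lay between theirs. CMPK2, a mitochondrial nucleotide kinase, had 0 reads in both H1299 libraries, where silence and lost counts cannot be told apart. IRF9 also had 0 reads in both H1299 libraries although an ATAC peak lay at its promoter there. In the counts it went from 15 to 84 reads in A549 and was 258 and 284 in CL1-5.

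Some list members also moved in the non-responding lines. BST2, or tetherin, which holds budding virus at the cell surface, changed by 4.75, 5.99 and 2.56 in A549, CL1-5 and H1299 and by 4.27, 5.25 and 3.93 in CL1-0, PC9 and H1792, so that H1299 had the smallest change of the 6. LGALS3BP, a secreted glycoprotein, changed by 1.66, 3.99 and 1.61 in the responding lines and by 3.25 in CL1-0, 0.22 in PC9 and 0.86 in H1792. IFI27 changed by 5.70, 4.42 and 4.64 in the responding lines, and by 0.72, 2.05 and 3.29 in CL1-0, PC9 and H1792, all from Mock levels of at most 1.29 FPKM. The term non-responding therefore describes the median of the list, not each gene.

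The interferon ligands had few reads in every library. Of the 14 genes on that list 11 were in the table and 5 passed the filter, and the 3 with a larger change in every responding line were IFNL1, IFNL2 and IFNL3. Over all genes 3.94% had a larger and 4.58% a smaller change in every responding line. IFNL1 went from 0 to 6 reads in A549, from 3 to 44 in CL1-5 and from 0 to 28 in H1299, was at 17 and 33 reads in CL1-0, and had none in PC9 or H1792, so its level after DAC was higher in CL1-0 than in A549. IFNL2 and IFNL3 reached 44 and 59 reads in CL1-5 and at most 2 in A549 and H1299, which is under the 3 reads taken as the floor, and as these genes are near-identical copies their reads may have been divided between them. IFNB1, a type I interferon, had at most 2 reads in any library, so a change in it was not detectable at this depth.

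Of the 22 nucleic acid sensors and adaptors, 21 passed the filter and 4 had a larger change in every responding line (3.94% of all genes did), namely DDX58, IFIH1 and DHX58, which are themselves interferon-stimulated, and cGAS (CGAS), for which the changes were 0.67, 0.82 and 0.43 against -0.08, 0.04 and 0.09. Without H1299 the number was 9 of 20, with 1 smaller, beside 7.51% and 8.36% of all genes. In Mock cells CGAS was 1.00, 6.78 and 6.02 FPKM in A549, CL1-5 and H1299 and 8.71, 10.1 and 5.35 in CL1-0, PC9 and H1792. STING (TMEM173), the adaptor of cGAS, was 0.606, 18.3 and 12.9 FPKM in the responding lines and 0.044, 3.42 and 10.0 in the others. Both DNA sensing genes thus overlapped between the groups before treatment, with STING low in A549 and in CL1-0. Among receptors and signalling genes (22 listed), the feedback protease USP18 had a larger change in every responding line, at 0.16, 2.70 and 0.97 against -0.34, -0.32 and -0.16. Among 13 brakes on nucleic acid sensing, of which 12 passed the filter, SAMHD1, DHX9 and PNPT1 had a larger change in every responding line, the smallest of these being a change of -0.04 in A549 for PNPT1, which equalled that in CL1-0 when rounded.

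**Figure D2:**
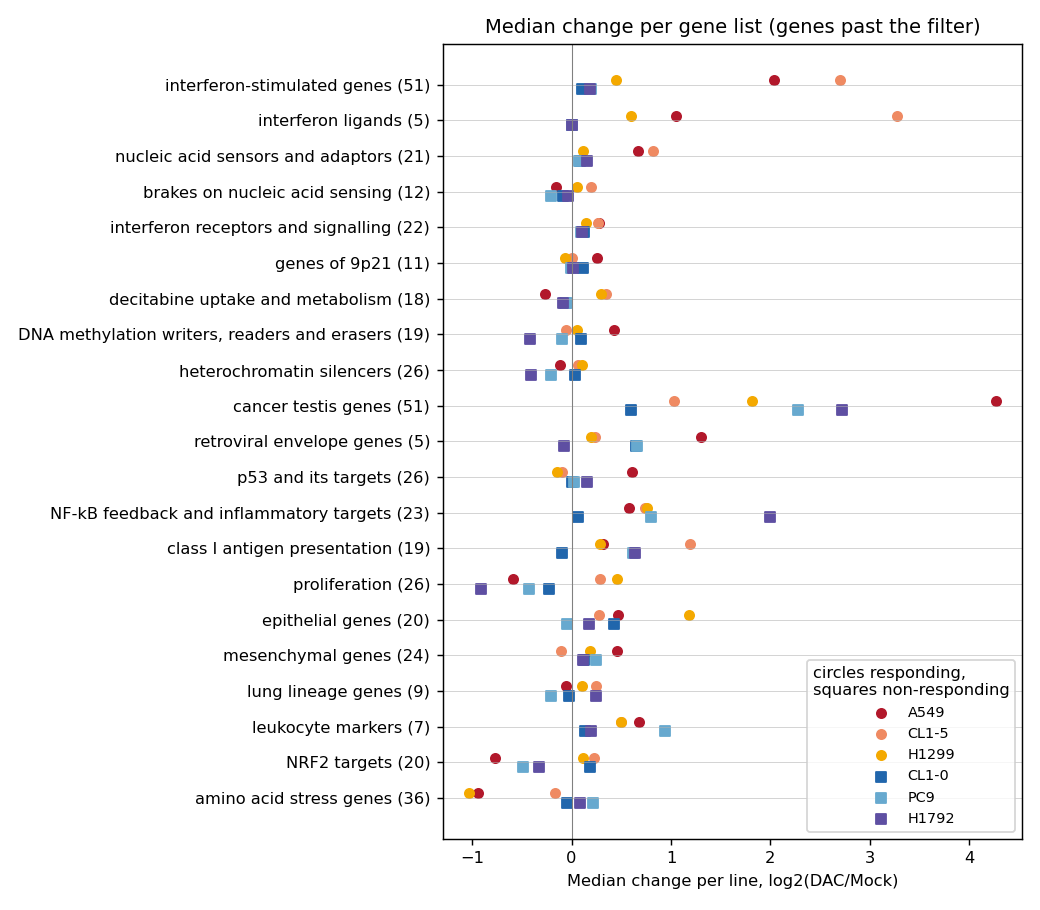
Median change after DAC (log2) of each gene list in each of the 6 lines, with the number of genes that passed the filter beside each list name. The interferon-stimulated medians of the responding lines lie above those of the other lines, while the cancer testis medians overlap, from 4.27 in A549 to 0.60 in CL1-0.

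The median changes of genes outside the interferon list that lose silencing when DNA methylation falls did not divide the lines in the same way. The cancer testis genes, normally active only in germ cells and silenced by promoter methylation elsewhere, had median changes of 4.27, 1.03 and 1.81 in A549, CL1-5 and H1299 and of 0.60, 2.28 and 2.72 in CL1-0, PC9 and H1792, over the 51 of 56 that passed the filter. PC9 and H1792 thus lay above CL1-5 and H1299. Of these genes 5 (9.8%) had a larger change in every responding line (XAGE2, SYCP3, TKTL1, PIWIL1 and MAEL) and none a smaller one. Over all genes 3.94% had a larger and 4.58% a smaller change. Without H1299 it was 10 of 50 with a larger change and none with a smaller one, beside 7.51% and 8.36% of all genes. The envelope genes of endogenous retroviruses, also held silent by DNA methylation, had median changes of 1.30, 0.24 and 0.20 against 0.65, 0.66 and -0.08 over the 5 of 9 that passed the filter. ERV3-1 had a smaller change in every responding line, by a narrow margin between A549 (0.64) and CL1-0 (0.65), and none had a larger one. Retroviral repeats were not analysed here. Counted over all genes, those with at most 3 reads in Mock and at least 1 FPKM after DAC numbered 439, 184 and 152 in the responding lines and 212, 279 and 265 in the others. The number of genes at least doubled was 3542, 1650 and 1834 against 1734, 2347 and 2507, so A549 had the highest count and CL1-5 the lowest, both of them responding lines. DNMT1, the maintenance methyltransferase that DAC traps, was 14.2, 26.1 and 26.3 FPKM in Mock cells of the responding lines and 33.0, 23.8 and 17.4 in the others. Its changes of 0.07, 0.27 and 0.44 lay above those of -0.08, -0.26 and -0.62, as did those of its partner UHRF1, at 0.54, 0.98 and 0.56 against 0.10, -0.24 and -0.99. The proliferation genes, which move with DNMT1 and UHRF1 in the cell cycle, had medians of -0.59, 0.29 and 0.46 against -0.23, -0.43 and -0.91, and their part in these changes was not tested.

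A total of 288 genes at least doubled in all 3 responding lines, and 53 of these stayed under that fold in the 3 other lines, 13 of them from the interferon list. The opposite pattern held for 29 genes. Without H1299, 743 genes doubled in A549 and CL1-5, 209 of them under that fold in the others (27 from the interferon list), and 35 had the opposite pattern. With all lines, 60 genes at least doubled in all 6 lines. Outside the interferon list, among genes that reached 1 FPKM in each responding line, the widest gap between the groups was that of EZHIP (2.44, or 1.14 with 1 FPKM added), which inhibits the histone methyltransferase EZH2. It went from 0, 0 and 0.0181 FPKM to 1.91, 2.01 and 6.83 in A549, CL1-5 and H1299, and reached 0.35, 0 and 0.108 in CL1-0, PC9 and H1792. It was followed by LAPTM5, a lysosomal membrane protein of blood cells (gap 2.02, but 0.13 with 1 FPKM added), which went from 0.0428, 0.451 and 0.0427 FPKM to 1.09, 5.19 and 1.08 in the responding lines. LAPTM5 was already at 20.4 and 29.7 FPKM in Mock PC9 and H1792, so its smaller change there was from a high level, not from silence.

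APOL1 (chr22:36649117-36663576, GRCh37), a secreted apolipoprotein known to be induced by interferon, was the member of this ranking with the highest levels, and its gap of 1.65 was 1.57 with 1 FPKM added. It went from 4.43 to 24.5 FPKM in A549, from 2.25 to 41.5 in CL1-5 and from 10.0 to 69.8 in H1299, and changed by -0.09, 0.79 and 0.69 in CL1-0, PC9 and H1792. PARP10, an ADP-ribosyltransferase also known to respond to interferon, changed by 3.98, 2.87 and 2.33 against 1.21, 0.79 and 0.56. STS, the steroid sulfatase, changed by 2.22, 1.67 and 1.18 against 0.08, 0.15 and 0.29, from Mock levels that did not separate the groups. The other genes of the first 10 were the X-linked CXorf49 (gap 1.82, but 0.08 with 0.01 FPKM added) and SSX3, the non-coding LINC01554 and LINC02087 and the unnamed ENSG00000267654, for which the order of the groups turned with 0.01 FPKM added. SLFN12 and SPINT1 lay outside this rule and were chosen after their values were seen. SLFN12, a relative of the interferon-induced Schlafen proteins, changed by 3.04, 3.05 and 2.94 against 0.13, 0 and -0.02. The protease inhibitor SPINT1 changed by 2.54, 2.69 and 2.85 against 0.13, 0.69 and 0.75. Both were already present in Mock PC9 and H1792, SLFN12 at 1.69 and 0.657 FPKM and SPINT1 at 31.4 and 1.88. Mock CL1-0 had 0 FPKM of both. After DAC the responding lines reached 0.722, 0.983 and 0.819 FPKM of SLFN12 and 1.17, 0.546 and 1.12 of SPINT1. Of the 20 epithelial genes 4 had a larger change in every responding line, namely CLDN4, ESRP2, OVOL2 and ST14, where 3.94% of all genes did. CLDN4, a tight junction protein, went from 0.586 to 3.87, from 0.22 to 1.13 and from 0.0223 to 0.427 FPKM in A549, CL1-5 and H1299, while PC9 and H1792 had 60.3 and 35.1 FPKM before treatment.

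**Figure D3:**
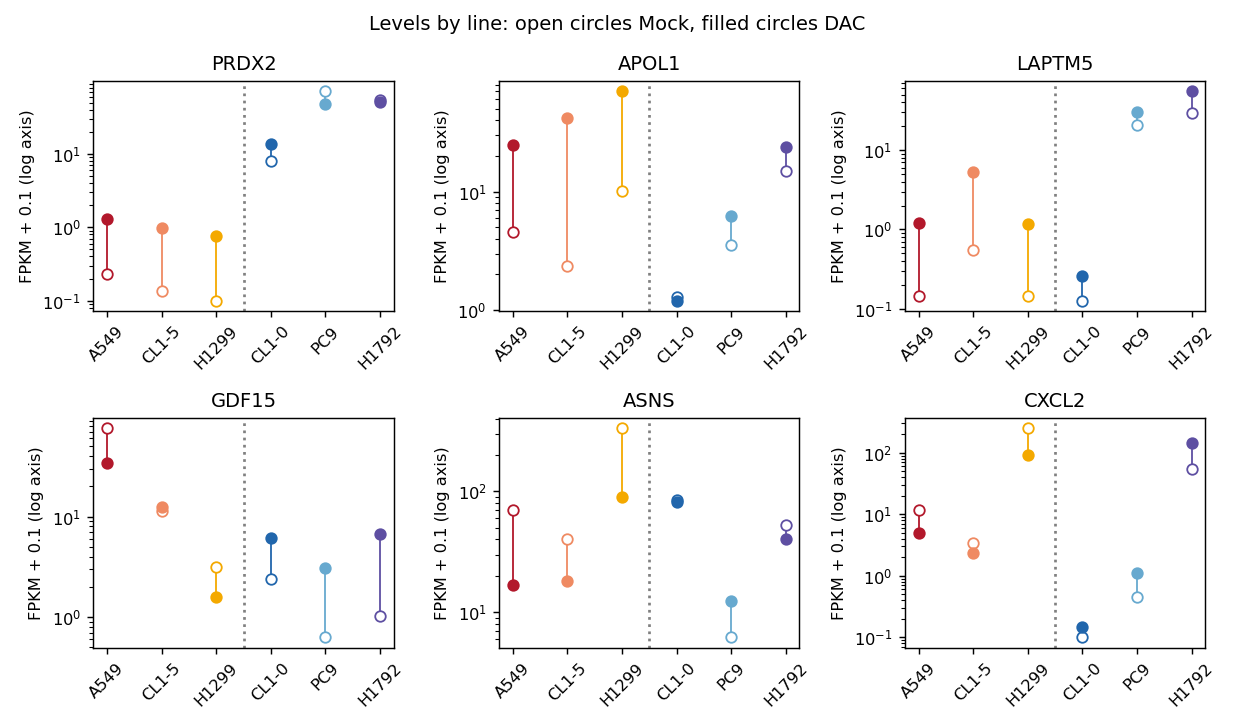
Levels of PRDX2, APOL1, LAPTM5, GDF15, ASNS and CXCL2 in each line, as FPKM + 0.1 on a log axis, with an open circle for the Mock library, a filled circle for the DAC library and a line joining them; the dotted line divides responding (left) from non-responding lines. ASNS is lower after DAC in the 3 responding lines, from 70.0, 40.6 and 333 FPKM to 16.8, 17.9 and 90.3, and PRDX2 lies under 0.2 FPKM in the responding Mock libraries and above 8 in the others.

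A part of the amino acid stress genes had a lower change in the responding lines, least clearly in CL1-5. These genes, targets of the transcription factor ATF4 that make amino acids and charge tRNAs, were put in a list of 36 after GDF15, DDIT3, ASNS and ULBP1 had appeared among the genes with the smallest change, so the list is not independent of that ranking. Its median change was -0.94, -0.17 and -1.03 in A549, CL1-5 and H1299 and -0.05, 0.22 and 0.09 in CL1-0, PC9 and H1792. For 12 of the 36 (33.3%) the change was smaller in every responding line, where 4.58% of all genes had this pattern, and for none was it larger. The count was also 12 without H1299. The 12 were DDIT3, CHAC1, ASNS, PHGDH, VLDLR, PCK2, CEBPG, GDF15, ULBP1 and the tRNA synthetase genes AARS, GARS and CARS. As 4 of the 12 chose the list, nothing is read from these shares.

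ASNS (chr7:97480989-97501854, GRCh37), asparagine synthetase, went from 70.0 to 16.8 FPKM in A549, from 40.6 to 17.9 in CL1-5 and from 333 to 90.3 in H1299. In CL1-0 it was 84.7 and 82.3, in PC9 6.09 and 12.2 and in H1792 52.4 and 39.9. The Mock levels of the groups overlapped. PHGDH, the first enzyme of serine synthesis, changed by -2.29, -0.85 and -2.40 against -0.52, 0.41 and -0.46. DDIT3, the stress factor CHOP, changed by -0.97, -0.75 and -1.75 against 0.11, 0.47 and 0.71. CHAC1, a glutathione-degrading enzyme, changed by -2.46, -0.33 and -1.39 against -0.08, 2.21 and 1.92. The change of ATF4 mRNA itself overlapped between the groups, at -1.15, -0.14 and -1.15 against -0.38, 0.24 and 0.39. CL1-5 had the change nearest to 0 of the 3 responding lines for ASNS, PHGDH, DDIT3 and CHAC1, and the largest interferon-stimulated median.

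**Figure D4:**
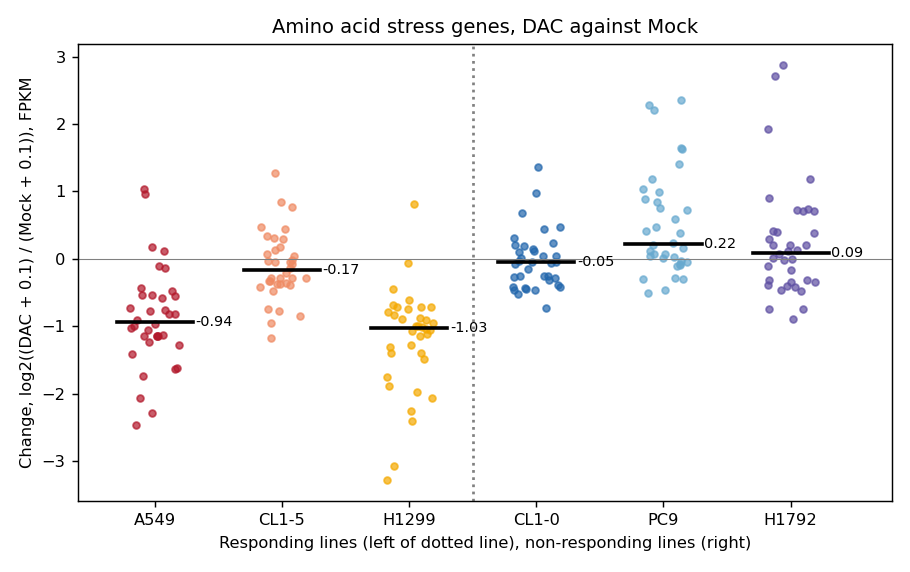
Change after DAC (log2) of the 36 amino acid stress genes in each line, 1 point per gene with the median as a bar. The medians are -0.94 in A549 and -1.03 in H1299, -0.17 in CL1-5, and between -0.05 and 0.22 in CL1-0, PC9 and H1792.

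GDF15, a secreted stress cytokine that p53 also induces, changed by -1.15, 0.13 and -0.99 in the responding lines and by 1.37, 2.28 and 2.72 in CL1-0, PC9 and H1792. Its Mock level was 75.6, 11.3 and 3.05 FPKM against 2.29, 0.53 and 0.927, so the groups did not overlap in either quantity, while in CL1-5 the level was nearly the same before and after DAC. CXCL2, a chemokine that attracts neutrophils, changed by -1.23, -0.56 and -1.47 in A549, CL1-5 and H1299 and by 0.54, 1.29 and 1.42 in CL1-0, PC9 and H1792, and it was the only gene of 22814 with a change of -0.5 or less in every responding line and 0.5 or more in every other. Its levels in CL1-0 (0 and 0.045 FPKM) were too low to give that line weight. Its relative CXCL3 changed by -1.13, -0.82 and -1.53 against 0.90, 0.45 and 2.0, and CXCL1 and IL1B also had a smaller change in every responding line. Other genes on the same NF-kB list went the other way, since CCL5, a T cell chemokine, went from 15.6, 9.13 and 19.3 FPKM to 38.6, 63.3 and 60.4 in the responding lines and changed by 0.07, 0.59 and 0.90 in the others, and BIRC3 had a larger change as well. On this list of 23 genes, 4 had a smaller and 2 a larger change in every responding line, where 4.58% and 3.94% of all genes did. The list as a whole overlapped, with medians of 0.58, 0.74 and 0.76 against 0.07, 0.80 and 2.0. HLA class I and antigen presentation genes had medians of 0.32, 1.19 and 0.29 against -0.10, 0.62 and 0.64. None of the 19 had a larger change in every responding line (3.94% of all genes did), while without H1299 there were 2 (7.51% of all genes). MTMR11, a myotubularin-related protein, changed by -0.36, -0.50 and -1.43 against 0.96, 1.18 and 1.07. The other genes with the smallest changes were OPLAH, the pseudogene MLLT10P1, the microRNA gene MIR324 and ENSG00000265982 and ENSG00000228626, most of them under 4 FPKM in Mock cells or read through short transcripts, and MIR324 and ENSG00000228626 were listed at 0 in both H1299 libraries.

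Mock levels were then compared to ask whether any gene differed between the groups before treatment. limma was fitted to log2(FPKM + 0.1) of the 6 Mock libraries over the 21744 genes with a mean of at least 0.1 FPKM, with Benjamini-Hochberg adjustment, and called 0 genes higher (0%) and 0 lower (0%) in the responding lines at an adjusted p under 0.05. The smallest adjusted p was 0.604. At an unadjusted p under 0.05 there were 130 genes higher and 230 lower, 1.66% of those tested, and limma voom on the recovered reads also called 0 in each direction, with 145 and 324 at an unadjusted p under 0.05. The levels of the groups did not overlap for 465 genes (2.14%) that were higher and 756 (3.48%) that were lower in the responding lines. The Mock libraries also enter the changes that grouped the lines. With 3 lines in each group no gene is therefore named as differing, and the genes below are those with the lowest unadjusted p whose levels did not overlap, given as values. Leaving out H1299 or CL1-0 in turn gave 1 call each. Without CL1-0 it was XAGE1B, a cancer testis gene at 61.3, 225 and 227 FPKM in the responding lines, 160 in CL1-0 and 0 in PC9 and H1792 (limma adjusted p = 0.0192), which follows from leaving out the non-responding line that expresses it.

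**Figure D5:**
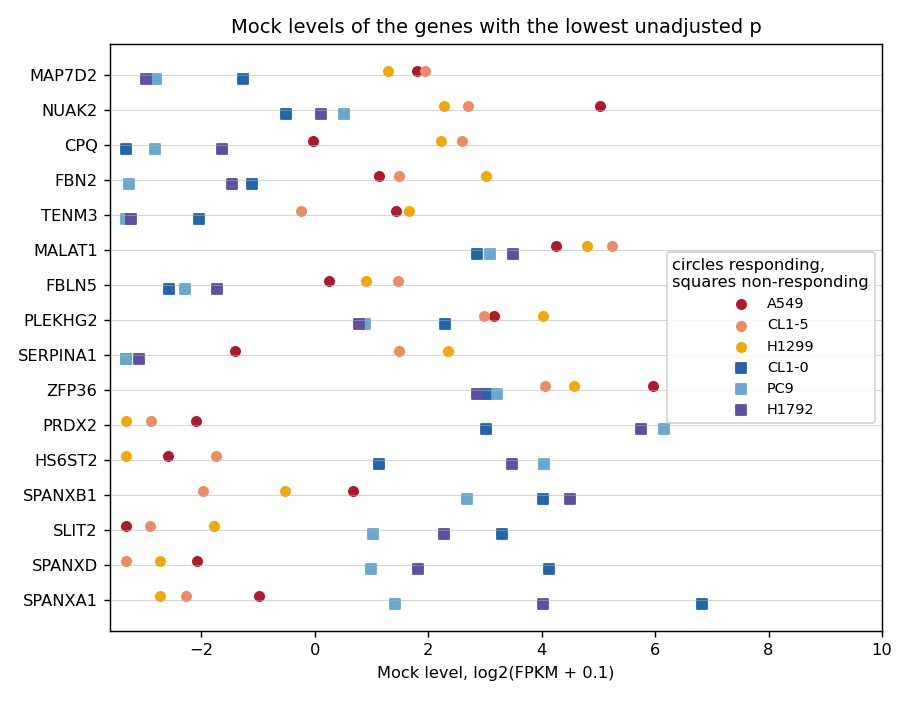
Mock levels, as log2(FPKM + 0.1), of the genes with the lowest unadjusted p in each direction, without the RNU6 copies, with 1 point per line (circles for responding and squares for non-responding lines). No gene passed the adjusted threshold, and the 2 groups do not overlap for these genes, PRDX2 lying under 0.2 FPKM in A549, CL1-5 and H1299 and between 8.01 and 70.9 FPKM in the others.

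PRDX2 (chr19:12907634-12912614 on the minus strand, GRCh37), a peroxiredoxin that removes hydrogen peroxide, had the lowest p in the Mock fit. It was at 0.134, 0.0353 and 0 FPKM in A549, CL1-5 and H1299, from 6, 2 and 0 reads, and at 8.01, 70.9 and 53.6 FPKM in CL1-0, PC9 and H1792, from 396, 3083 and 2781 reads. The fitted difference was -7.74 ± 0.92 (log2, SE; limma adjusted p = 0.604), which depends on the constant added because 1 library is at 0. After DAC the responding lines had 1.19, 0.866 and 0.669 FPKM, from 63, 44 and 74 reads, changes of 2.46, 2.84 and 2.94, and the others changed by 0.75, -0.56 and -0.05. Even after DAC the responding lines remained well below the non-responding ones. PRDX2 overlaps HOOK2 in the annotation, and reads shared between overlapping genes could be lost in counting. Its promoter is shown because this gene was close to undetected in each responding line before a demethylating drug and detected in each after it. It lies at chr19:12801751-12802050 on the minus strand of GRCh38.p14 (RefSeq), with CG dinucleotides in capitals.
PRDX2: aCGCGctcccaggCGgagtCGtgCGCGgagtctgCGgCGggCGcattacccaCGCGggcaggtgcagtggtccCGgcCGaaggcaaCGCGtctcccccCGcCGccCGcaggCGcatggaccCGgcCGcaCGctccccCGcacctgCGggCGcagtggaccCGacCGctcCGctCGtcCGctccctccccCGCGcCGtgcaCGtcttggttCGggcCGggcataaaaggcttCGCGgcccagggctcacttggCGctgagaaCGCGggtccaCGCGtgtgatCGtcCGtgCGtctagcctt

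The window held 46 CG dinucleotides, where the median over all 35116 promoters was 14 and 2.89% held as many or more. DNA methylation data were not analysed here. The window held no match to GAAANNGAAA. In the ATAC peak lists a peak at the PRDX2 promoter was found only in the 2 libraries labelled CL1-5 (Mock chr19:12912140-12913259, 3.18-fold over background, and DAC chr19:12911685-12913104, 2.87-fold, hg19), and none in the libraries from A549 or H1299, nor in the pair labelled PC9. Since CL1-5 had 2 PRDX2 reads in Mock and PC9 3083, peaks and mRNA go together only if the labels of these libraries are exchanged, as described with the promoter peaks below.

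The remaining Mock genes were given by the same rule. MAP7D2, a microtubule-associated protein, was at 3.40, 3.74 and 2.35 FPKM in the responding lines and at 0.319, 0.044 and 0.0276 in CL1-0, PC9 and H1792 (difference 4.02 ± 0.86). MALAT1, an abundant nuclear RNA, was at 18.9, 37.9 and 27.9 FPKM against 7.17, 8.44 and 11.2 (1.61 ± 0.40). ZFP36, which destabilises the mRNA of cytokines, was at 62.2, 16.6 and 23.7 FPKM against 8.13, 9.17 and 7.20 (1.83 ± 0.52), with A549 far above the rest. NUAK2, CPQ, FBN2, TENM3, FBLN5, PLEKHG2 and SERPINA1 were also higher without overlap, with differences between 2.06 (PLEKHG2) and 4.19 (CPQ). The matrix genes among these, FBN2 and FBLN5, code for fibres of the extracellular matrix. Lower without overlap were HS6ST2, a heparan sulfate sulfotransferase, at 0.066, 0.201 and 0 FPKM against 2.09, 16.4 and 11.0, and SLIT2, a secreted guidance factor, at 0, 0.0342 and 0.194 FPKM against 9.71, 1.94 and 4.76. SPANXB1, SPANXD and SPANXA1, cancer testis genes with near-identical copies, were also lower, with 1.49, 0.157 and 0.597 FPKM of SPANXB1 against 16.1, 6.36 and 22.5. The last 4 were RNU6 pseudogene copies with identical values, which shared their reads. All 20 genes had an adjusted p of 0.604 or higher.

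No list of candidate genes for predisposition held a member that passed the adjusted threshold. Over all genes the Mock levels did not overlap for 2.14% that were higher and 3.48% that were lower in the responding lines. Among the nucleic acid sensors no member differed without overlap in Mock cells. The RNA decay enzyme gene LACTB2 and ENDOG, a mitochondrial nuclease, were higher among the 12 brakes that passed the filter. LACTB2 was at 21.9, 11.7 and 16.2 FPKM against 9.26, 5.36 and 7.31. ENDOG was narrowly apart, at 1.59, 1.92 and 2.27 FPKM against 1.52, 1.07 and 1.03. The phosphatase gene PTPN1 was lower among the 22 signalling genes, and among 26 heterochromatin silencers the H3K9 methyltransferase SUV39H2 and the demethylase KDM1A were lower. For uptake and metabolism of decitabine, 3 of the 18 genes past the filter were higher without overlap, namely NME2, RRM2B and ABCC4. NME2 was narrowly apart, at 0.94, 0.953 and 0.877 FPKM against 0.756, 0.457 and 0.735. DCK, the kinase that activates the drug, overlapped at 8.03, 8.16 and 8.78 FPKM against 7.48, 5.38 and 9.28. Of the 26 p53 genes 6 were higher in every responding line, where 2.14% of all genes were, namely CDKN1A, GDF15, SESN1, RRM2B, TP53INP1 and EDA2R. CDKN1A, the cell cycle inhibitor p21, was at 36.5, 12 and 20.4 FPKM against 8.90, 4.62 and 8.91. On chromosome 9p21, where the type I interferon genes lie beside CDKN2A, CDKN2A was listed at 0 in Mock A549 and CL1-5, at 24.9 FPKM in H1299 and at 9.97, 21.7 and 11.2 in the others, and MTAP was at 0.0415 and 0.0328 FPKM in A549 and CL1-5 and at 1.30 to 3.29 in the other 4 lines. A549 and CL1-5 were thus alike at CDKN2A and MTAP, while the levels of H1299 resembled those of the non-responding lines. They parted at other genes of the 9p21 list, with Mock KLHL9 at 7.49 FPKM in A549 and 0.0129 in CL1-5, and MLLT3 at 6.66 and 0.245.

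Open chromatin was available for A549, CL1-5, H1299 and PC9, so that 1 non-responding line had ATAC libraries and no group comparison was possible. The labels of CL1-5 and PC9 went against the mRNA. Of 156 genes with at least 5 FPKM in PC9 and at most 0.1 in CL1-5, 84.6% had a peak at their start in the Mock ATAC data labelled CL1-5 and 47.4% in those labelled PC9, and of 95 genes with the opposite pattern 52.6% and 73.7% did. CDKN2A had promoter peaks in both libraries labelled CL1-5 and in neither labelled PC9, and the deposited names of these 4 lists also give the other line. Values are therefore given by label and can be read with the labels exchanged.

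Most interferon-stimulated promoters, like most promoters, had a peak within 3000 bp of the start before any drug was given. Of the 51 genes, A549 had one at 38 in Mock and 41 after DAC, H1299 at 31 and 39, the line labelled CL1-5 at 41 and 41 and the line labelled PC9 at 40 and 39. As a share, the Mock values were 74.5% in A549, 60.8% in H1299, 80.4% for the label CL1-5 and 78.4% for PC9, where over 17045 genes past the filter they were 72.3%, 69.4%, 74.4% and 72.9%. Exchanging the labels of the Mock libraries moved the PC9 count from 40 to 41. Promoters of 27 of the 51 genes had a peak in all 4 Mock libraries, among them ISG15, MX1, OASL, IRF7, DDX58 and IFIH1. LY6E, TRIM22, CXCL10 and CXCL11 had none in any library, although CXCL11 mRNA appeared in all 3 responding lines. H1299 gained peaks at 8 of the 20 list promoters without one in Mock and lost none, while over all genes 17.8% of those without a peak gained one and its peak list grew from 45354 to 63541. The gains were at IFI27, IFI44L, OAS2, CMPK2, SAMD9, LGALS3BP, IFITM1 and DHX58, of which IFI27, OAS2, LGALS3BP, IFITM1 and DHX58 belong to the 18 genes doubled in all responding lines. A549 gained peaks at 5 of the 13 list promoters without one in Mock (IFI27, IFI44L, XAF1, IFITM1 and DHX58) and lost those at IFIT2 and SAMD9L. The pair labelled CL1-5 gained 1 of 10 (IFIT1) and lost 1 (IFI44). The pair labelled PC9 gained 3 of 11 (PARP9, EPSTI1 and IFITM1) and lost 4 (IFI27, IFIT2, OAS1 and DTX3L). Over all genes without a peak, 19.2% gained one in A549, 14.3% in the pair labelled CL1-5 and 18.3% in that labelled PC9. There was 1 library per condition, so these gains and losses have no replicate check. IRF9, listed at 0 reads in H1299, had a promoter peak in all 8 libraries, including both of H1299 (4.71-fold in Mock and 4.01-fold after DAC).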

How the data were processed

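The 12 mRNA-seq libraries and 8 Omni-ATAC-seq libraries were assigned to lines and treatments from their labels. The study's methods give hg19, RSEM with bowtie2, and counting with GenomicAlignments on GENCODE, while the submitters' processing notes name TopHat2 2.1.1 for alignment, so the aligner is not settled. The authors deposited FPKM per gene and library, and in the same table a mean signal per gene, which was used here, and their own comparison (log2 fold change, standard error, test score and p-values), which was not. For ATAC-seq the authors used BWA 0.7.17-r1188 and MACS2 2.2.5, called peaks per library, and deposited for each peak a score, −log10 values of p and q and the fold over background, annotated with ChIPseeker 1.20.0. There were 0 columns of values without a sample.

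With the deposited mean signal, FPKM were turned back into read counts, and 100% of the values came out whole. Depth was 22.2 M to 59.7 M reads per library, and 3 reads were taken as the floor. Changes were computed with 0.1 FPKM added, over genes with a mean of at least 0.1 FPKM. Mock levels were tested with limma 3.58.1 in R 4.3.3 (moderated test with intensity trend, two-sided, Benjamini-Hochberg), checked on simulated data. The p-values measure only the spread between these lines. The members of the groups and the gene lists were chosen with earlier results of these data known. Genes were named where a list member did not overlap between the groups, where it had a role in its list, or where it was among 10 per direction with the lowest Mock p or the widest gap in change (at least 1 FPKM). Alternatives were another added constant, filter, scaling or weighting, voom on recovered reads, and leaving out each line in turn. Of the genes measured, 13891 had no symbol, and 13267 of these were named by their GENCODE identifier. Results of some genes are not reported here.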

Additional observations from a re-analysis of the deposited data

Results flagged for a closer look

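In 65 sets of 6 libraries checked for a sample far from the others 9 were found. Some sets are related and some hold genes picked for their Mock levels, so no rate by chance is set beside this count. The H1299 libraries had the greatest depth, at 59.7 M reads in Mock and 52.6 M reads after DAC. The median change of the interferon ligands was highest in CL1-5, at 3.27. The median Mock level of the epithelial genes, as log2(FPKM + 0.1), was highest in PC9, at 5.06. The Mock level was far above the rest for NUAK2 at 32.6 FPKM and ZFP36 at 62.2 FPKM in A549, for FBN2 at 8.04 FPKM in H1299, and for SPANXD at 17.5 FPKM and SPANXA1 at 114 FPKM in CL1-0.

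Among the genes named above by rule and the list members with a change of at least 0.3 in every line, 7 changed downward in every responding line and upward in every non-responding line after DAC. The limit of 0.3 applied to the list members only. MLLT10P1 changed by only -0.02 in A549, where its direction carries no weight. ENSG00000265982 had 2 reads in each A549 library, under the floor of 3 reads. The gap between the nearest lines of the groups, on the log2 scale, was 1.85 for ENSG00000265982, 1.32 for MTMR11, 1.28 for CXCL3, 1.10 for CXCL2, 0.89 for MLLT10P1, 0.85 for DDIT3 and 0.77 for OPLAH. DEPP1, which was picked outside these rules, had the same pattern, with changes of -1.76, -0.82 and -0.92 against 0.65, 1.67 and 0.46. In CL1-0 it had 1 read in Mock and 7 after DAC, so its direction there carries little weight. These differences were not tested, since changes after DAC chose the groups.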

How the results depend on the processing

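The counts of genes with a larger or smaller change in every responding line depended on the filter and on how many lines had to be ordered. With a mean of at least 1 FPKM they were 595 and 594, in place of 899 and 1045. Leaving out each line in turn gave 1568 to 2555 and 1776 to 2653, and leaving out both CL1-0 and CL1-5 gave 3944 and 3916, as fewer lines leave fewer conditions to meet. The gap of the interferon-stimulated median, 0.25, was 0.25 to 1.84 over the lines left out in turn (1.84 without H1299), 0.13 with TPM rescaling, 0.17 with 1 FPKM added and 0.41 with 0.01 FPKM added or a mean of at least 1 FPKM. The gap of the cancer testis median, -1.69, stayed negative under every alternative run. The count of genes called higher in Mock was 0 to 1 over the lines left out, the 2 single calls coming without H1299 (a gene not named here, limma adjusted p = 0.0355) and without CL1-0 (XAGE1B), and 0 under all other alternatives run. The gap of ENSG00000267654 turned to -1.25 with 0.01 FPKM added, and the cause was not tested. The other 68 values of the main comparisons and 519 values of single genes kept their direction and side of the threshold. No paired analysis was possible because the groups of lines compared share no line, so their samples cannot be matched across groups. Mock and DAC of a line were already paired in its change. The depth of 22.2 M to 59.7 M reads leaves genes with few reads, such as the interferon ligands, without a measurable difference, and 3 lines per group limit the Mock comparison.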
